A study of Caenorhabditis elegans with 24 samples.

Results

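Of the papain-family genes of Caenorhabditis elegans, cpr-8, cpr-9 and cpz-2 are among those outside the set described here. The genes described here are 8 cathepsin-type cysteine protease genes, cpr-1, cpr-2, cpr-3, cpr-4, cpr-5, cpr-6, cpl-1 and cpz-1, out of 20392 genes in the count table. They were listed by name, with earlier results of these data known. Messenger RNA was sequenced from dissected intestines of TIR1 control animals and Pol I-AID animals, with 4 biological replicates for each of 6 groups and so 24 libraries. Animals were day 1 adults at 0 h. Those of the other groups were kept on food on auxin plates for 12 or 24 h more, and were older by that time. Both genotypes carry the transgene ieSi57 on chromosome II, in which the broadly active eft-3 promoter drives the plant F-box protein TIR1 joined to mRuby, ahead of the unc-54 3'UTR and beside a Cbr-unc-119(+) marker. Degradation was therefore not limited to the intestine. Pol I-AID also carries qzIs15, a degron and GFP fused to rpoa-2 under the rpoa-2 promoter, and RPOA-2 is a subunit of RNA polymerase I, the enzyme that transcribes ribosomal RNA. The genotype label of the controls also names unc-119(ed3) III. The 0 h animals had 0 mM auxin and the 12 and 24 h animals 1 mM. Each library pooled intestines of several animals, and each genotype was represented by a pair of strains. Replicate 1 came from DCW143 (TIR1) and DCW180 (Pol I-AID), outcrossed 1 time, and replicates 2 to 4 from DCW448 (TIR1) and DCW447 (Pol I-AID), outcrossed 3 times. TIR1 and Pol I-AID below each cover both strains of a genotype. The comparisons ask how cathepsin mRNA in the intestine differed between the strains before auxin (0 h) and after 12 and 24 h of RPOA-2 degradation in fed animals.

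Cathepsins of this kind are papain-family proteases. They are made as inactive precursors, are activated when a propeptide is cut off, and digest protein in lysosomes or after secretion with a cysteine in the active site. The worm intestine takes up bacterial protein from the gut lumen and is rich in lysosome-related organelles, and cysteine proteases are among its main digestive enzymes. The cpr genes encode cathepsin B-like enzymes, cpl-1 encodes the worm cathepsin L, which is required in the embryo and for the processing of yolk, and cpz-1 encodes a cathepsin Z-like enzyme with a known part in moulting. In the WBcel235 annotation cpr-1 to cpr-5 and cpl-1 lie on chromosome V, cpr-6 on chromosome X and cpz-1 on chromosome I, and the coding neighbours of cpr-5 are W07B8.4 and cpr-8, both of the papain family. No other coding gene overlaps a cathepsin gene there. A piRNA gene overlaps cpr-4 and an snRNA gene overlaps cpz-1, both on the opposite strand.

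After 24 h on auxin, cpr-5 and cpr-1 were 3.53-fold and 2.13-fold lower in intestines of Pol I-AID than of TIR1, and cpr-3, a gene at a far lower level, was 2.41-fold higher. The 4 other measurable genes were not called. In Pol I-AID intestines cpr-5 mRNA fell from a mean of 21464 CPM at 0 h to 8191 CPM at 12 h and 4051 CPM at 24 h, whereas cpr-6 went from 11873 to 13727 and 15600 CPM. A gene was called when edgeR's quasi-likelihood test gave a p-value that, adjusted by Benjamini and Hochberg over the 6903 genes tested (FDR), was under 0.05, and the change was at least 2-fold. CPM is counts per mega count (M) on TMM-scaled library sizes, and values for replicates 1 to 4 are given in that order.

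Library totals ran from 3.18 to 29.5 M counts, and 2 control libraries were shallow, TIR1 0 h replicate 3 (3.18 M) and TIR1 24 h replicate 1 (4.68 M). The library labelled TIR1 12 h replicate 4 was most like the TIR1 0 h libraries. Its correlation across genes was 0.990 with their mean and 0.973 with that of the other libraries of its own group. The 12 h strain differences and their changes from 0 h are therefore also given without it for the genes described in full. TIR1 0 h replicate 2 was marginally more like the Pol I-AID 0 h mean (0.986) than that of its own group (0.985). The transcript of rpoa-2, whose protein is the target of the degron, was at 0 to 1.63 CPM in all groups, and its level is no check of the degradation. Intestinal genes other than vitellogenins (11 listed genes) summed to a median of 4051, 3001 and 2751 ppm of counts outside the vitellogenin genes in TIR1 at 0, 12 and 24 h and to 4150, 2667 and 2194 ppm in Pol I-AID. At 24 h these sums did not overlap between the strains. Genes of gonadal sheath and coelomocytes (6 listed, 2 to 4 of them above 3 counts in a group) summed to 16.3 to 22.3 ppm in Pol I-AID and 3.99 to 15.8 ppm in TIR1 at 24 h. Of the 6, cup-4 had the highest median over all libraries (1.44 CPM), and the next was ceh-18 (0.136 CPM). Body wall muscle genes reached 256 ppm and hypodermal genes 1261 ppm, both highest in a TIR1 0 h library. Germline and oocyte genes reached 299 ppm in a Pol I-AID 0 h library, and pharyngeal genes 94.8 ppm in a TIR1 24 h library. The part of these shifts in the results was not tested, and in dissected tissue fewer cells of a type and less RNA per cell cannot be told apart.

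Transcripts of the 8 genes made up a large part of the counts outside the vitellogenin genes. Together the 8 genes took 18.5% ± 0.472 (SD, n = 4) of the counts that were not from the yolk protein genes vit-1 to vit-6 in TIR1 at 0 h and 18.5% ± 0.464 in Pol I-AID. The share was 16.98% ± 1.02 and 15.97% ± 1.28 in TIR1 at 12 and 24 h, and 13.8% ± 0.425 and 12.8% ± 0.284 in Pol I-AID. Of all counts, vitellogenins included, the 8 genes took a mean of 5.85%, 4.70% and 3.90% in TIR1 at 0, 12 and 24 h. In Pol I-AID they took 5.31%, 3.35% and 2.73%. The abundant papain-family gene cpr-9, described below, is not in these sums. At both later times the share outside the vitellogenin genes was lower in every Pol I-AID library than in every TIR1 library: the highest Pol I-AID values were 14.2% at 12 h and 13.02% at 24 h, and the lowest TIR1 values were 15.6% and 14.2%. At 0 h this share overlapped. The share of all counts was already apart at 0 h, at most 5.49% in Pol I-AID and at least 5.54% in TIR1. So was the share of cpr-5 outside the vitellogenin genes, at most 8.26% in Pol I-AID and at least 8.84% in TIR1. Among the 8 listed genes, the widest gap of a single gene was that of cpr-5. Its share went from 7.56% to 3.56% and 1.62% in Pol I-AID and from 9.05% to 6.86% and 5.22% in TIR1. The share of cpr-6 went from 4.18% to 5.97% and 6.26% in Pol I-AID and from 3.57% to 5.05% and 5.58% in TIR1.

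**Figure D1:**
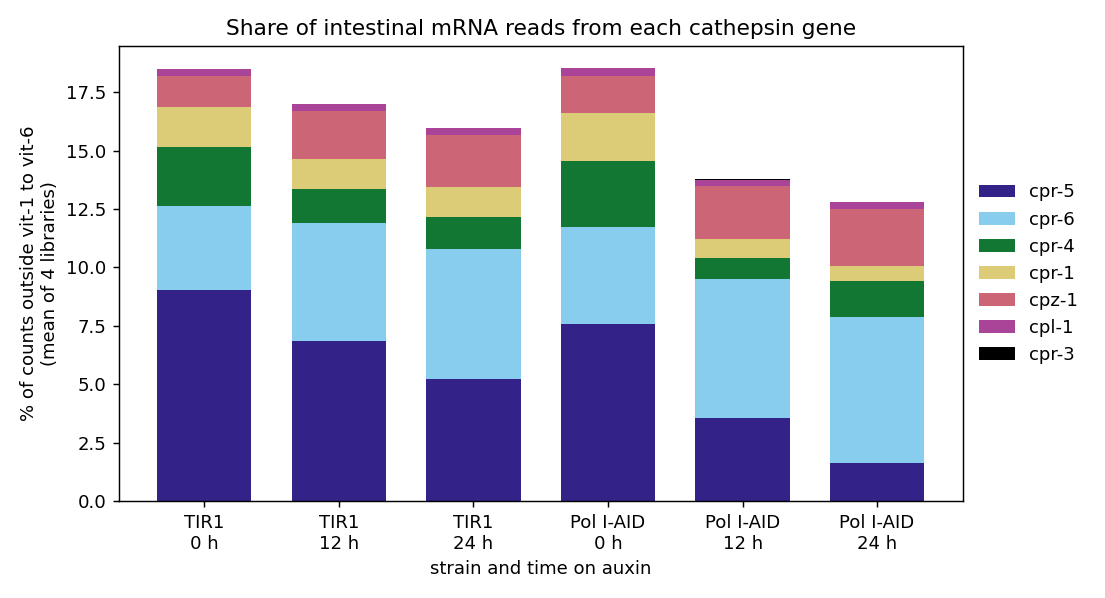
Stacked bars give the mean share (%, 4 libraries per group) of counts outside the vitellogenin genes that came from each cathepsin gene, for each strain and time on auxin (h). The cpr-5 segment shrinks from 7.56% to 1.62% in Pol I-AID while the cpr-6 segment grows from 4.18% to 6.26%.

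Scaled for exon length, the order of the genes within a group changed with time and strain. In TIR1 at 0 h the mean levels were 20760 CPM per kilobase for cpr-5, 7538 for cpr-6, 6038 for cpr-4, 4077 for cpr-1, 3364 for cpz-1, 705 for cpl-1 and 27.9 for cpr-3. Neighbours in that order overlapped only for cpr-1 and cpz-1. Pol I-AID at 0 h had the same order with no overlap between neighbours, from cpr-5 at 18455 CPM per kilobase to cpr-3 at 16.8. At 24 h in Pol I-AID the order was cpr-6 (12332 CPM per kilobase), cpz-1 (5864), cpr-5 (3484), cpr-4 (3424), cpr-1 (1474), cpl-1 (574) and cpr-3 (35.9), in which cpr-5 and cpr-4 overlapped. In TIR1 at 24 h cpr-5 (12285 CPM per kilobase) and cpr-6 (12072) overlapped at the top of the order, followed by cpz-1 (5916) and by cpr-4 (3305) and cpr-1 (3145), which also overlapped. Counted by read number, cpr-5 ranked 1st among genes outside the vitellogenins in TIR1 at 0 h and 8th in Pol I-AID at 24 h, where cpr-6 ranked 1st.

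cpr-2, a cathepsin B-like gene, was not detected. It had 0 counts in 21 of 24 libraries and at most 2 counts in the others, which is under the floor of 3 counts taken as the limit of detection, so no fold is given and it was not tested. This floor covers counting error only. The other 7 genes passed the filter on low counts in every comparison.

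cpr-5, a cathepsin B-like gene, had the most counts of the 8 genes in both strains before auxin. At 0 h its levels were 24016, 24752, 22076 and 25731 CPM in TIR1 and 24072, 21031, 20100 and 20652 CPM in Pol I-AID, and the groups overlapped (log2 fold change -0.17, SE 0.11, FDR = 0.71 in edgeR). At 12 h they were 18459, 14871, 16110 and 22873 CPM in TIR1 and 8553, 7311, 8373 and 8525 CPM in Pol I-AID. The lowest control library was thus well above the highest Pol I-AID library, and the difference was called (log2 fold change -1.14, SE 0.12, FDR = 4.37e-07 in edgeR). Without TIR1 12 h replicate 4 the value was -0.999 (FDR = 6.73e-07 in edgeR), just short of 2-fold, and counts scaled to the total outside the vitellogenin genes gave -0.95. At 24 h the levels were 16501, 13788, 14344 and 12517 CPM in TIR1 and 4307, 3572, 4114 and 4212 CPM in Pol I-AID. The groups lay far apart, with a log2 fold change of -1.82 (SE 0.12, FDR = 1.72e-10 in edgeR), and the call was kept in all 23 alternatives run. The strain difference grew from 0 to 24 h by -1.65 on the log2 scale (SE 0.16, FDR = 3.40e-07 in edgeR). Its change from 0 to 12 h was -0.97 (FDR = 0.000767 in edgeR, under 2-fold), or -0.84 (FDR = 0.000598) without TIR1 12 h replicate 4, and from 12 to 24 h -0.68 (FDR = 0.0645 in edgeR), or -0.81 (FDR = 0.00445) without that library. The change from 0 to 12 h came past 2-fold and was called in 6 alternatives (-1.004 to -1.06), 5 of which left out a library or replicate and 1 of which removed an exon length trend.

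cpr-1, a cathepsin B-like gene expressed in the gut, was called as lower in Pol I-AID at 24 h. Its levels were 3462, 5733, 4485 and 4538 CPM in TIR1 and 6023, 6696, 5755 and 5163 CPM in Pol I-AID at 0 h. Before auxin it therefore leaned the other way, with overlapping groups (log2 fold change 0.38, SE 0.16, FDR = 0.458 in edgeR). At 12 h it was at 2650, 2923, 3155 and 4731 CPM in TIR1 and 1771, 1795, 1914 and 1757 CPM in Pol I-AID. These groups did not overlap, and the log2 fold change of -0.90 (SE 0.16, FDR = 0.000913 in edgeR) was under 2-fold, and without TIR1 12 h replicate 4 it was -0.68 (FDR = 0.00417). At 24 h it was at 2772, 3820, 3864 and 3597 CPM in TIR1 and 1712, 1329, 1747 and 1799 CPM in Pol I-AID, again without overlap, and the difference was called (log2 fold change -1.09, SE 0.16, FDR = 3.42e-05 in edgeR). Without the replicate 2 libraries the value at 24 h was -0.96 (FDR = 0.00191 in edgeR), under 2-fold, and scaling to the total outside the vitellogenin genes also gave -0.96. The strain difference changed by -1.27 (SE 0.22, FDR = 0.00145 in edgeR) from 0 to 12 h and by -1.47 (SE 0.22, FDR = 0.00013 in edgeR) from 0 to 24 h, and both changes were called. With the scaling outside the vitellogenin genes the first was -0.99 (FDR = 0.00701 in edgeR), under 2-fold, and without TIR1 12 h replicate 4 it was -1.06 (FDR = 0.00146) and kept its call.

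cpr-4, a cathepsin B-like gene whose product is secreted, was not called between the strains at any time and passed the FDR threshold alone at 12 h. At 0 h it was at 6313, 7450, 6021 and 7337 CPM in TIR1 and 7251, 9066, 7961 and 7405 CPM in Pol I-AID, with overlap (log2 fold change 0.22, SE 0.18, FDR = 0.778 in edgeR). At 12 h it was at 3284, 2545, 3064 and 6264 CPM in TIR1 and 1738, 2260, 2159 and 2064 CPM in Pol I-AID. The groups did not overlap and the log2 fold change was -0.88 (SE 0.18, FDR = 0.00428 in edgeR), under 2-fold. TIR1 12 h replicate 4 stood at more than the level of any other control library at that time, and without it the value was -0.52 (FDR = 0.0136 in edgeR). With replicate 1 of every group left out as well it was -0.38 (FDR = 0.244 in edgeR). At 24 h the levels were 4227, 3977, 3460 and 3181 CPM in TIR1 and 4051, 3139, 3953 and 4236 CPM in Pol I-AID. The groups overlapped, with a log2 fold change of 0.05 whose 95% interval from the fit, not adjusted over genes, was -0.33 to 0.43 (FDR = 0.907 in edgeR). The change of the strain difference from 0 to 12 h was called at -1.11 (SE 0.26, FDR = 0.0161 in edgeR), but without TIR1 12 h replicate 4 it was -0.75 (FDR = 0.0104 in edgeR), and it also lost its call without replicate 1, 3 or 4 of all groups. The call was lost as well with total counts (-0.92, FDR = 0.138 in edgeR), with counts scaled outside the vitellogenin genes (-0.83, FDR = 0.0755) and in a fit to the compared groups alone (-1.09, FDR = 0.054), so that 8 of 31 alternatives ended it. From 12 to 24 h the difference changed back by 0.93 (SE 0.26, FDR = 0.13 in edgeR), which was not called.

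cpr-3, a cathepsin B-like gene, had the fewest counts of the detected genes and the widest spread. Its levels at 0 h were 49.1, 27.1, 38.6 and 35.5 CPM in TIR1 and 27.4, 26.9, 17.7 and 18.6 CPM in Pol I-AID (log2 fold change -0.73, SE 0.32, FDR = 0.496 in edgeR). At 12 h they were 21.3, 15.7, 48.3 and 36.1 CPM in TIR1 and 51.9, 45.5, 31.1 and 25.1 CPM in Pol I-AID, and the groups overlapped broadly (log2 fold change 0.34, SE 0.32, FDR = 0.74 in edgeR, or 0.44 with an FDR of 0.675 without TIR1 12 h replicate 4). At 24 h they were 14.8, 23.7, 17.8 and 22.8 CPM in TIR1 and 40.6, 49.8, 23.6 and 79.2 CPM in Pol I-AID. In 3 of the 4 Pol I-AID libraries the gene was above all controls, while replicate 3 lay within their range. The difference was called as higher (log2 fold change 1.27, SE 0.33, FDR = 0.0104 in edgeR), and it was lost without Pol I-AID 24 h replicate 4 (0.93, FDR = 0.0671 in edgeR) or without the replicate 4 libraries of all groups (0.98, FDR = 0.0944 in edgeR). The strain difference changed by 2.001 from 0 to 24 h (SE 0.46, FDR = 0.00742 in edgeR), with 1.62 and an edgeR FDR of 0.0595 without the replicate 4 libraries and 1.88 and an FDR of 0.0504 without the replicate 1 libraries.

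**Figure D2:**
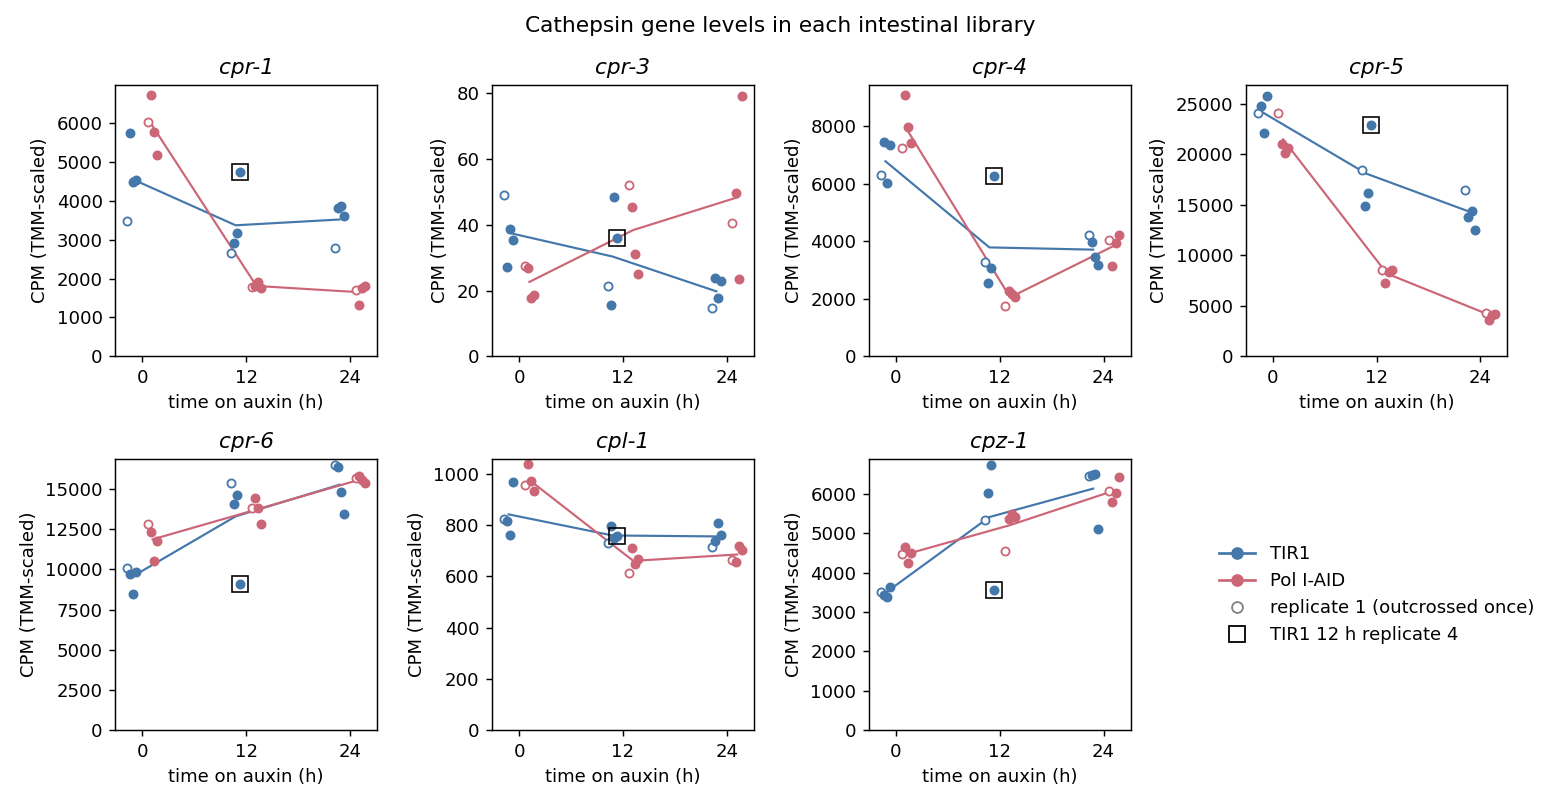
Each panel plots CPM (TMM-scaled, linear axis from 0) of 1 gene in each of the 24 libraries against time on auxin (h), with a line through the group means, open circles for replicate 1 and a square around TIR1 12 h replicate 4. For cpr-5 the Pol I-AID libraries lie between 3572 and 4307 CPM at 24 h and the TIR1 libraries between 12517 and 16501 CPM, and for cpr-6 the 24 h groups overlap.

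cpr-6, a further cathepsin B-like gene, was not called in any comparison. At 24 h it was at 16490, 16366, 14793 and 13434 CPM in TIR1 and 15666, 15804, 15570 and 15359 CPM in Pol I-AID. The Pol I-AID libraries fell inside the range of the controls, with a log2 fold change of 0.03 and a 95% interval of -0.21 to 0.27 (FDR = 0.913 in edgeR). At 12 h the value was 0.05 (interval -0.20 to 0.29, FDR = 0.943 in edgeR) and turned to -0.09 without TIR1 12 h replicate 4. At 0 h cpr-6 was at 10102, 9749, 8454 and 9838 CPM in TIR1 and 12822, 12353, 10527 and 11789 CPM in Pol I-AID, groups that did not overlap, but the log2 fold change of 0.32 did not pass the threshold (SE 0.12, FDR = 0.352 in edgeR).

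cpz-1, the cathepsin Z-like gene, was not called in any comparison either. At 0 h it was at 3516, 3423, 3373 and 3642 CPM in TIR1 and 4465, 4661, 4239 and 4511 CPM in Pol I-AID, without overlap and without a call (log2 fold change 0.36, SE 0.13, FDR = 0.315 in edgeR). At 12 h it was at 5339, 6028, 6726 and 3553 CPM in TIR1 and 4538, 5374, 5492 and 5425 CPM in Pol I-AID. The low control value was that of replicate 4, the library that resembled 0 h, and the groups overlapped (log2 fold change -0.06, interval -0.32 to 0.21, FDR = 0.932 in edgeR, or -0.20 with an FDR of 0.289 without that library). At 24 h it was at 6450, 6479, 6495 and 5114 CPM in TIR1 and 6070, 5799, 6029 and 6428 CPM in Pol I-AID, with a log2 fold change of -0.01 (interval -0.28 to 0.25, FDR = 0.967 in edgeR).

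cpl-1, the cathepsin L gene, differed little. At 12 h it was at 732, 797, 750 and 759 CPM in TIR1 and 615, 709, 648 and 669 CPM in Pol I-AID. The groups did not overlap, but the log2 fold change of -0.20 (interval -0.38 to -0.02) missed the threshold (FDR = 0.234 in edgeR), as did -0.19 (FDR = 0.31) without TIR1 12 h replicate 4. It was 0.21 at 0 h (SE 0.09, FDR = 0.435 in edgeR), where TIR1 ran from 759 to 967 CPM and Pol I-AID from 935 to 1038 CPM, and -0.14 at 24 h (interval -0.32 to 0.04, FDR = 0.33 in edgeR). The changes of the strain difference of cpl-1, cpr-6 and cpz-1 between time points were not called either, with log2 values from -0.41 to 0.06. Without TIR1 12 h replicate 4 their changes from 0 to 12 h were -0.41 for cpl-1 (FDR = 0.0643 in edgeR), -0.41 for cpr-6 (FDR = 0.0371) and -0.57 for cpz-1 (FDR = 0.00927), the last 2 past the FDR threshold and all under 2-fold. That of cpr-3 was 1.07 (FDR = 0.307 in edgeR), or 1.17 (FDR = 0.241) without the library.

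**Figure D3:**
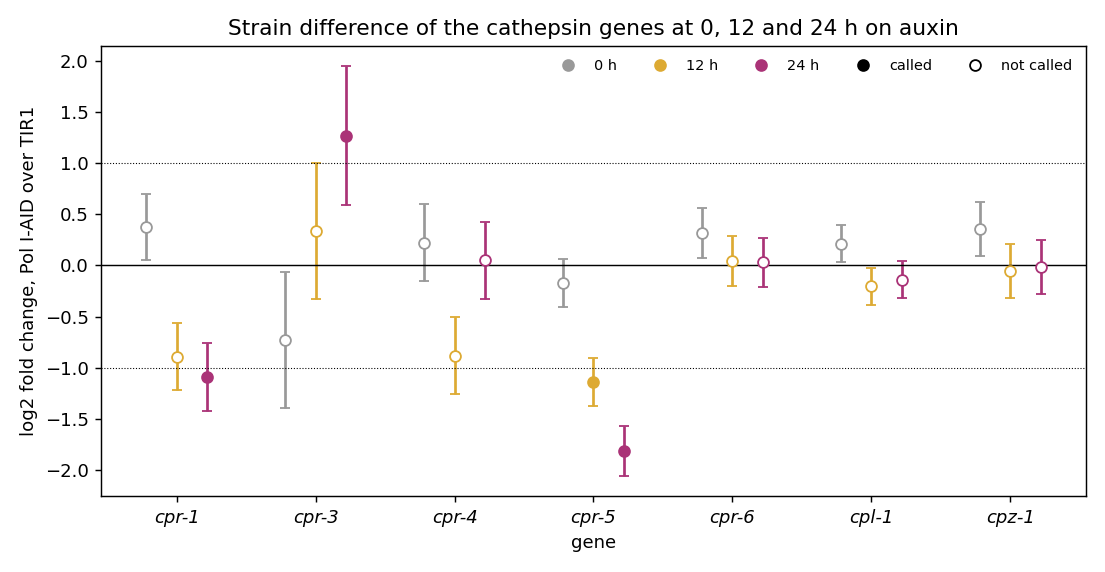
Points give the log2 fold change of Pol I-AID over TIR1 for the 7 tested cathepsin genes at 0, 12 and 24 h on auxin, bars give the 95% interval from the edgeR fit (not adjusted over genes), filled points are called and dotted lines mark 2-fold. Filled points are cpr-5 at 12 h (-1.14) and 24 h (-1.82), cpr-1 at 24 h (-1.09) and cpr-3 at 24 h (1.27).

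Counted over the group, none of the 7 tested genes was called between the strains at 0 h, where 0.0435% of all tested genes were called higher and 0.13% lower. At 12 h none was higher and 1 was lower, against 1.94% and 0.522% of all tested genes. At 24 h 1 was higher and 2 were lower, against 4.35% and 3.35%. The groups of 4 libraries did not overlap for 2 of the 7 genes at 0 h, 4 at 12 h and 2 at 24 h, against 5.62%, 10.6% and 17.8% of all tested genes. The median log2 fold change of the 7 genes was 0.22, -0.20 and -0.01 at 0, 12 and 24 h, and over all tested genes it was 0.04, -0.01 and 0.00. In the changes of the strain difference, none was higher and 2 were lower from 0 to 12 h (1.67% and 0.406% of all tested genes), 1 was higher and 2 were lower from 0 to 24 h (3.51% and 2.38%), and none was called from 12 to 24 h (0.101% and 0.217%). At an FDR under 0.05 with no fold threshold, the strain comparisons gave 0, 3 and 3 of the 7 genes at 0, 12 and 24 h, against 0.217%, 5.39% and 13.8% of all tested genes. At 0 h 5 of the 7 had an unadjusted p under 0.05, against 9.05% of all tested genes, and in the change from 12 to 24 h 2 did, against 10.5%, while DESeq2 called 0 in both. The balance of calls over all genes moved with the scaling. At 24 h 300 genes were higher and 231 lower, and scaling to the total outside the vitellogenin genes gave 403 and 148. At 12 h the numbers were 134 and 36, or 219 and 13 with that scaling. In the change from 0 to 24 h they were 242 and 164, or 375 and 100, and scaling to total counts gave 293 and 97. In the change from 0 to 12 h they were 115 and 28, or 189 and 6, and total counts gave 175 and 7.

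Replicate 1, from the strains outcrossed 1 time, gave the same direction as the fit without it for each of the called genes. For cpr-5 the log2 ratio of Pol I-AID to TIR1 in replicate 1 was -1.11 at 12 h and -1.94 at 24 h, and the fit to replicates 2 to 4 gave -1.15 and -1.78. For cpr-1 at 24 h the values were -0.70 in replicate 1 and -1.22 in replicates 2 to 4, and for cpr-3 they were 1.46 and 1.22. Replicate 1 has 1 library per group and so allows no test.

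Within strains, the comparisons with 0 h combine time on the plates, age and auxin (0 mM at 0 h, 1 mM later). These cannot be told apart. The comparisons share their 0 h libraries with each other and with the changes of the strain difference. In Pol I-AID, 3 of the 7 genes fell from 0 to 12 h and none rose (2.42% and 5.71% of all tested genes). They were cpr-4 (log2 fold change -1.95, SE 0.19, FDR = 7.43e-08 in edgeR), cpr-1 (-1.71, SE 0.16, FDR = 6.78e-08) and cpr-5 (-1.39, SE 0.12, FDR = 1.66e-08). From 0 to 24 h the same 3 genes fell and 1 rose (6.53% and 10.8% of all tested genes). The log2 fold changes were -2.41 for cpr-5 (FDR = 4.21e-13 in edgeR), -1.84 for cpr-1 (FDR = 2.99e-09), -1.04 for cpr-4 (FDR = 9.31e-05) and 1.09 for cpr-3 (FDR = 0.0125). The rise of cpr-3 was lost without Pol I-AID 24 h replicate 4 (0.75, FDR = 0.0936 in edgeR) or Pol I-AID 0 h replicate 3 (0.98, FDR = 0.0405), without the replicate 4 libraries (0.63, FDR = 0.215) and with total counts (0.87, FDR = 0.0476). Likewise the fall of cpr-4 came under 2-fold without Pol I-AID 0 h replicate 2 (-0.97) or 24 h replicate 2 (-0.96), without the replicate 2 libraries (-0.89), with counts scaled outside the vitellogenin genes (-0.86) and among genes with 10 counts in every library (-0.99). The levels of cpr-4 thus reached their low point at 12 h, with a highest library of 2260 CPM, and all 24 h libraries were above it from 3139 CPM.

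In TIR1, none of the 7 genes was called from 0 to 12 h (2.07% of all tested genes were higher and 0.507% lower) or from 0 to 24 h (6.55% and 3.16%). Scaling to total counts turned the balance over all genes from 0 to 24 h from 452 higher and 218 lower to 294 and 629 in TIR1, and from 748 and 451 to 584 and 747 in Pol I-AID. Scaling outside the vitellogenin genes gave 901 and 308 in Pol I-AID from 0 to 24 h, and 619 and 90 in place of 394 and 167 from 0 to 12 h. At an FDR under 0.05 alone, 4 of the 7 genes passed at each time, against 4.65% of all tested genes at 12 h and 16.3% at 24 h. From 0 to 24 h they were cpr-4 (log2 fold change -0.87, FDR = 0.0017 in edgeR), cpr-5 (-0.76, FDR = 4.55e-05), cpr-6 (0.68, FDR = 0.000225) and cpz-1 (0.81, FDR = 7.88e-05), and for these genes and cpr-3 the 0 and 24 h libraries did not overlap, 5 of the 7 against 17.8% of all tested genes. At an unadjusted p under 0.05, 5 genes passed from 0 to 12 h and 6 from 0 to 24 h, against 15.2% and 27.9% of all tested genes, and DESeq2 called 0 at both times. Without TIR1 12 h replicate 4, cpr-4 was called as lower from 0 to 12 h (-1.196, FDR = 5.30e-07 in edgeR). In Pol I-AID the values of cpr-6 and cpz-1 from 0 to 24 h were 0.39 (FDR = 0.0126 in edgeR) and 0.44 (FDR = 0.00999), and that of cpl-1 was -0.51 (FDR = 6.50e-05), all under 2-fold. All 7 tested genes passed the FDR threshold alone in that comparison, against 27.8% of all tested genes.

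Ratios of genes within a library do not depend on the scaling between libraries. Per exon base, cpr-5 stood to cpr-6 at 2.76 ± 0.121 (SD, n = 4) in TIR1 at 0 h and at 1.97 ± 0.108 in Pol I-AID at 0 h. These 0 h groups did not overlap. The ratio was 1.30, 1.15, 1.196 and 2.73 in the TIR1 libraries at 12 h, where replicate 4 kept the 0 h value, and 0.652 ± 0.0735 in Pol I-AID. The 24 h ratio of 1.02 ± 0.0745 in TIR1 compared with 0.283 ± 0.0251 in Pol I-AID, so that the lowest control library (0.916) was above the highest Pol I-AID library (0.299). By contrast, cpz-1 stood to cpr-6 at group means between 0.448 and 0.495 in all 6 groups. At 24 h cpr-4 stood to cpr-5 at 0.269 ± 0.0208 in TIR1, against 0.980 ± 0.0545 in Pol I-AID.

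**Figure D4:**
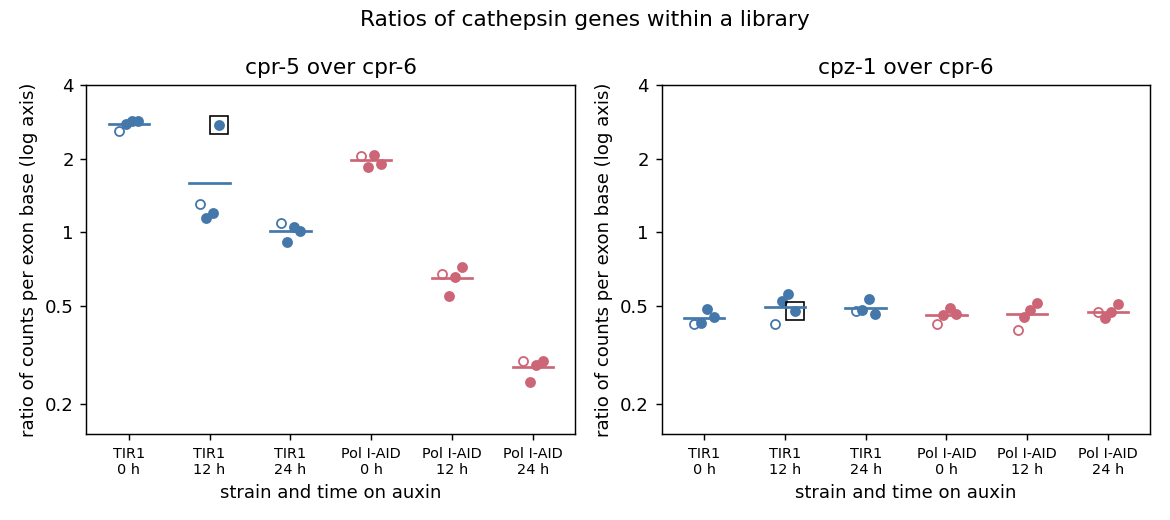
Points give the ratio of counts per exon base of cpr-5 to cpr-6 (left) and of cpz-1 to cpr-6 (right) in each library on a log axis, with a bar at the group mean, open circles for replicate 1 and a square around TIR1 12 h replicate 4. The left ratio ranges from 0.246 to 2.84 over the 24 libraries and the right ratio from 0.401 to 0.560.

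Across the 24 libraries, which share the effects of strain and time, the log2 levels of cpr-6 and cpz-1 had a Pearson correlation of 0.938 and those of cpr-1 and cpr-5 of 0.884. The correlation of cpr-5 with cpr-6 was -0.647. Of 1458 genes with a mean of at least 10 CPM, those most like cpr-5 were F17H10.1 (0.962), sec-61.A (0.956), which encodes the translocation channel of the endoplasmic reticulum, and WBGene00013092 (0.950). Those most like cpr-1 were Y49E10.18 (0.958), vha-13 (0.949), a subunit of the proton pump that acidifies lysosomes, and the C-type lectin gene clec-54 (0.939). Genes most like cpr-4 were Y39B6A.1 (0.965) and the aspartic protease genes asp-2 (0.953) and asp-6 (0.949), and those most like cpr-3 were T19D12.4 (0.839), W09G12.7 (0.824) and K10D11.5 (0.758). These are descriptions over the same libraries, with no test. The level of sec-61.A was 7201, 5048 and 3244 CPM in TIR1 and 8844, 2390 and 1096 CPM in Pol I-AID at 0, 12 and 24 h.

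Among 15 other papain-family genes in the table, 8 were tested and none was called between the strains at 0, 12 or 24 h. The gene cpr-9, named after its values were seen, was at a mean of 23342 CPM in TIR1 and 28651 CPM in Pol I-AID at 0 h. Its levels at 24 h were 27727, 27416, 26474 and 24894 CPM in TIR1 and 11332, 13670, 15119 and 17623 CPM in Pol I-AID, and all controls were above all Pol I-AID libraries (log2 fold change -0.88, SE 0.11, FDR = 2.30e-06 in edgeR, under 2-fold). Without the replicate 4 libraries it was called at 24 h (-1.05, FDR = 1.77e-06 in edgeR). Its strain difference changed by -1.18 from 0 to 12 h (FDR = 3.17e-05 in edgeR) and by -1.18 from 0 to 24 h (FDR = 1.26e-05), both called. With counts scaled to the total outside the vitellogenin genes these changes were under 2-fold (-0.90 and -0.96), as was the first with total counts (-0.95). At 12 h its log2 fold change was -0.89 (FDR = 6.29e-06 in edgeR), or -0.85 (FDR = 1.90e-05) without TIR1 12 h replicate 4, which left its change from 0 to 12 h at -1.15. Under 2-fold were also F32H5.1 (-0.97, FDR = 9.86e-07 in edgeR) and cpr-8, the neighbour of cpr-5 (-0.83, FDR = 0.000304), at 24 h, both named after their values were seen.

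Neither of the 2 cystatin genes, which encode inhibitors of these proteases, was called between the strains. The log2 fold changes of cpi-2 were 0.11 and -0.62 at 12 and 24 h (FDR = 0.963 and 0.40 in edgeR), and those of cpi-1, at under 4 CPM in all group means, were 2.49 and 1.78 (FDR = 0.0602 and 0.10). The legumain-like gene lgmn-1, of a family that processes cathepsin precursors in mammals, had log2 fold changes of -0.04 and 0.09 at 12 and 24 h (FDR = 0.938 in edgeR and 0.618). Of 10 tested serine carboxypeptidase genes, a list of cathepsin A-like ctsa genes and of pcp genes, pcp-4 was higher at 24 h (log2 fold change 1.01, SE 0.29, FDR = 0.0188 in edgeR). It was at 4.07 to 7.54 CPM in Pol I-AID and 1.49 to 4.18 CPM in TIR1. These groups overlapped, and the call was lost in 13 of 22 alternatives. Of 11 tested aspartic protease genes of the asp family, asp-8 was lower at 12 h (-2.40, FDR = 0.0126 in edgeR) and asp-17, at under 5 CPM in all group means, was higher at 24 h (2.36, FDR = 0.0174). None of 6 tested calpain genes was called, and of 8 transcription factor genes of the intestine and lysosome skn-1, a regulator of stress responses, was higher at 12 h (1.01, FDR = 0.00928 in edgeR) and none was called at 24 h. These 3 genes were named after their values were seen. The 12 h values of asp-8 and skn-1 are given only with TIR1 12 h replicate 4 included, and that of skn-1 was barely past 2-fold.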

How the data were processed

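The authors trimmed reads with Trimmomatic, aligned them to ce10 with QuasR and hisat2, and summed unique reads over the exons of WS220 genes. Raw gene counts were deposited, without normalization, beside the exon length in the same table. The library kit does not mark strand, although counting was set to the gene's own strand. Even numbers made up 70.1% to 82.4% of counts from 1 to 10, as when both mates are counted, so counts are not independent molecules.

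Counts were analysed in R 4.3.3 with edgeR 4.0.16 (filterByExpr, TMM, quasi-likelihood F-test, 1 mean per group, 24 libraries, 18 residual degrees of freedom). Each SE was taken from the log2 fold change and its F statistic (size divided by the root of F), and intervals are at 95%. Genes were called at FDR under 0.05 and at least 2-fold. CPM uses TMM-scaled sizes. Gene symbols matched 19182 of 20392 identifiers, and reads of close paralogs were kept only where unique. The files' assembly differs from the annotation used for chromosomes and neighbours, so no coordinates or sequences are given.

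The members and lists were chosen with earlier results of these data known. Named were all 8 cathepsin genes, called genes of the papain, cystatin and serine carboxypeptidase lists in the strain comparisons, and the 3 genes most correlated (log2(CPM + 1)) with each called cathepsin gene. The scripts were tested on simulated data. Alternatives were other scalings, filters, DESeq2 1.42.0, a replicate block, an exon length correction and left-out libraries.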

Additional observations from a re-analysis of the deposited data

Results flagged for a closer look

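The level of cpr-5 in Pol I-AID 12 h replicate 2 (7311 CPM), of cpz-1 in TIR1 24 h replicate 4 (5114 CPM) and of cpz-1 in Pol I-AID 12 h replicate 1 (4538 CPM) stood apart from the other 3 libraries of the group. These were 3 of 42 groups examined, and chance singles out about 1 in 20 groups.

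The strain difference changed with time on auxin, by a test of the change itself, for cpr-1 (-1.27) and cpr-4 (-1.11) from 0 to 12 h and for cpr-1 (-1.47), cpr-3 (2.001) and cpr-5 (-1.65) from 0 to 24 h. Values are on the log2 scale.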

How the results depend on the processing

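None of the 16 called values of single cathepsin genes turned direction in any of the alternatives run. Counts of called cathepsin genes are given against their values in the report. At 24 h, scaling outside the vitellogenin genes left 2 calls in place of 3. So did leaving out the replicate 2 libraries, the replicate 4 libraries or Pol I-AID 24 h replicate 4. Without the replicate 1 or the replicate 4 libraries, the change from 0 to 24 h had 2 calls in place of 3. In Pol I-AID from 0 to 24 h, the settings named above for cpr-3 and cpr-4 each left 3 calls in place of 4. Without a fold threshold, 3 genes in place of 1 passed at 12 h, 4 in place of 0 in TIR1 at each time and 7 in place of 4 in Pol I-AID from 0 to 24 h. Scaling to the total outside the vitellogenin genes, which moved the median of all genes by 0.19 at 12 h, 0.13 at 24 h, 0.27 and 0.21 in the changes from 0 to 12 and 24 h and 0.30 and 0.18 in Pol I-AID over the same times, left 0 calls at 12 h and 0 in the change from 0 to 12 h. Scaling to total counts, which moved it by -0.21 at 0 h, 0.22 and 0.13 in the same changes, -0.16 in TIR1 from 0 to 12 h, and -0.38 in TIR1 and -0.25 in Pol I-AID from 0 to 24 h, left 1 call in the change from 0 to 12 h and gave 3 in TIR1 from 0 to 24 h. Fitting the compared groups alone left 1 call in the change from 0 to 12 h. Using no count filter, removing an exon length trend or using no fold threshold gave 3 there in place of 2. In Pol I-AID from 0 to 12 h, scaling outside the vitellogenin genes or no fold threshold gave 4 in place of 3.

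Leaving out single libraries or replicates gave 0 to 2 calls at 12 h, 1 to 3 in the change from 0 to 12 h, where cpr-5 was gained without replicate 2 or 3, TIR1 12 h replicate 2 or 3 or TIR1 0 h replicate 4, 0 to 1 in the change from 12 to 24 h and 0 to 1 in TIR1 from 0 to 12 h. Leaving out TIR1 12 h replicate 4 ended the call of cpr-5 at 12 h, and without TIR1 12 h replicate 2, cpr-4 was called at 12 h as well. Leaving out replicate 1 together with TIR1 12 h replicate 4, chosen after seeing the data, gave 0 calls at 12 h, 1 in the change from 0 to 12 h and 1 in TIR1 from 0 to 12 h.

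Only log2 values from -0.27 (cpr-6 in the change from 0 to 12 h) to 0.22 (cpr-4 at 0 h) turned direction. None of them was called, and the cause was not tested. Scaling to total counts gave -0.00076 for cpr-4 and -0.015 for cpl-1 at 0 h, -0.0088 for cpr-4 and -0.036 for cpr-6 at 24 h, and -0.021 for cpl-1 and -0.064 for cpz-1 in the change from 12 to 24 h. Scaling outside the vitellogenin genes gave 0.14 and 0.12 for cpz-1 at 12 and 24 h, 0.014 for cpr-6 in the change from 0 to 12 h, 0.046 for cpr-4 from 0 to 24 h, and -0.0015 for cpl-1 and -0.019 for cpz-1 from 12 to 24 h. Removing an exon length trend gave -0.082 for cpr-4 and -0.092 for cpr-6 at 24 h, and -0.010 for cpl-1 and -0.011 for cpz-1 from 12 to 24 h. The compared groups alone gave -0.015 for cpr-6 at 24 h, and -0.0064 for cpl-1 and -0.025 for cpz-1 from 12 to 24 h. For cpz-1 at 24 h, genes with 10 counts in every library gave 0.013 and leaving out both shallow libraries 0.010, which also gave 0.026 for cpr-6 from 12 to 24 h. Leaving out replicate 1 with TIR1 12 h replicate 4 gave -0.072 for cpr-6 at 12 h, 0.011 for cpz-1 at 24 h and 0.14 for cpr-6 from 12 to 24 h. Single left-out libraries or replicates gave -0.090 to 0.13 for cpr-6 at 12 h, -0.21 to 0.081 for cpz-1 at 12 h, -0.091 to 0.17 for cpr-4 at 24 h, -0.042 to 0.068 for cpr-6 at 24 h, -0.14 to 0.036 for cpz-1 at 24 h, -0.13 to 0.13 for cpr-6 from 12 to 24 h, -0.0100 to 0.082 for cpl-1 from 12 to 24 h and -0.13 to 0.20 for cpz-1 from 12 to 24 h.

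With a replicate block, the counts were 0, 1 and 3 at 0, 12 and 24 h and no call of a cathepsin gene changed. Same-numbered libraries deviated together in 4 of 12 pairs (correlation over 0.1, range -0.11 to 0.30). In 6 of 12, among them all pairs at 0 h, the same-numbered library had the highest correlation. The numbers were not taken to pair the samples, and the replicate block is given for the case that they do. Depth limits the values of cpr-2, cpi-1, asp-17, pcp-4 and rpoa-2 most.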
